A study of Mus musculus with 12 samples.

Results

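Expression of 10 genes that encode inhibitory ligands for T cells, NK cells or phagocytes was examined in 4T1 cells, out of 35521 genes with transcripts in the deposited files. The genes were chosen by symbol, namely *Cd274*, *Lgals9*, *Lgals3*, *Cd47*, *Cd276*, *Pvr*, *Nectin2*, *Ceacam1*, *Cd24a* and *Cd200*. 4T1 is an established mouse mammary carcinoma line of BALB/c origin. The RNA-Seq libraries are bulk and fall into 3 groups of 4. Parental 4T1 cells had no coculture. Tu-primed 4T1 cells (named Tu-Gr1+CD11b+–primed 4T1 in the study) were kept for 48 hours in a Transwell with 0.4 μm pores opposite Gr1+ cells that had been taken by magnetic column (MACS) from the tumors of BALB/c mice injected with 4T1 cells, at day 21 by the sample labels and at a later day by the methods text. Spl-primed 4T1 cells (Spl-Gr1+CD11b+–primed 4T1) were cocultured in the same way with Gr1+ cells from the spleen of such mice. The medium given for the cocultures was DMEM with Glutamax, FBS, nonessential amino acids and antibiotics, and 4T1 cells of all groups were lysed in the well. No source used here says whether the 4 libraries of a group came from separate cultures or mice, so the p values measure the spread between these libraries, which may be technical. Library totals lay between 24566183 and 31637755 reads.

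Inhibitory ligands bind receptors that dampen the response of the immune cell that meets them, and many tumors carry several of them at once. PD-L1, encoded by *Cd274*, engages PD-1 on T cells and is known to be raised by interferons, in part through the transcription factor IRF1. CD47 engages SIRPα on phagocytes and restrains engulfment, the nectin-family proteins PVR and nectin-2 bind TIGIT on T and NK cells, and the secreted lectins galectin-9 and galectin-3 bind glycans on receptors such as TIM-3 and LAG-3.

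In Tu-primed 4T1 cells, *Lgals9*, *Nectin2* and *Cd24a* were higher than in Spl-primed 4T1 cells (edgeR), where 4.66% of all genes were called higher. Of the 8 genes tested, 0 were called lower, where the share of all genes was 2.97%. Without adjustment (edgeR, p under 0.05) this count was also 0, beside a share of 12.4%. With 8 genes, a count of 0 is not set apart from these shares. Compared with parental 4T1 cells, *Lgals9*, *Cd274*, *Cd47*, *Nectin2* and *Pvr* were higher and *Lgals3* and *Cd276* were lower in Tu-primed cells. In Spl-primed cells *Pvr* was higher than in parental cells, and *Lgals3*, *Cd276* and *Cd24a* were lower. The largest of these differences was that of *Lgals9*, at 4.62-fold between the primed groups, whereas *Cd274* had at most 32 counts in any library.

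Upstream sequence is shown for *Lgals9* and *Cd274*, the members with the highest fold changes between Tu-primed and parental cells, and for *Nectin2*. By the calls above, *Lgals9* and *Nectin2* were the members higher in Tu-primed cells than in both other groups. Each run holds the 250 bases before the RefSeq start of the gene in GRCm38.p6, 5′ to 3′ on the strand of the gene. Capitals mark a match to the interferon-stimulated response element searched here as GAAA, any 2 bases and GAAA, or TTTC, any 2 bases and TTTC when read on the other strand. *Lgals9* is read from chr11:78984925-78985174 on the minus strand, *Cd274* from chr19:29367188-29367437 on the plus strand, and *Nectin2* from chr7:19749574-19749823 on the minus strand.
Lgals9: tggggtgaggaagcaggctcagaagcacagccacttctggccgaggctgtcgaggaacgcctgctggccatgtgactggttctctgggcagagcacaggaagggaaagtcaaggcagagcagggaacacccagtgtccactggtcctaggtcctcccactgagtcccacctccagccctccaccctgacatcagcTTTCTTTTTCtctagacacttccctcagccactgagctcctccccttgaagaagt
Cd274: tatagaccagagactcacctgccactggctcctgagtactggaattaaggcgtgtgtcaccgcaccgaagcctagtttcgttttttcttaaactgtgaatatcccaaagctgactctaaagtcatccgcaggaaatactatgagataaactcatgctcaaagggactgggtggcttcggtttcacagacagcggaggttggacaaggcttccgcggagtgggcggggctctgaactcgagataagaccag
Nectin2: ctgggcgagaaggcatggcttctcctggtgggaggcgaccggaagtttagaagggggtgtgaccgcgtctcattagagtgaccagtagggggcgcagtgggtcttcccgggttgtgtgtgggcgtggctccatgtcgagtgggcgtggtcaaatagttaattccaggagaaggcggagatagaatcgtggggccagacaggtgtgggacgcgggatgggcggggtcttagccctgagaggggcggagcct

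RefSeq windows of 300 bases, from 250 before to 50 after the start, were found for 8 of the 10 genes, and *Pvr* and *Cd24a* had none in the table used. *Lgals9* was the only one of the 8 with a match to the response element. Its matches were TTTCTTTTTC, which begins 55 bases before the start (chr11:78984970-78984979), and TTTCTGTTTC, which begins at base 16 after it (chr11:78984900-78984909). Such a match was present in 1131 of 32851 windows of this length in RefSeq, or 3.44%. The GAS motif, searched as TTCNNNGAA, reads the same on both strands, and a match of it can share bases with a match of the first motif. It was present in 8.30% of windows and in none of the 8. A match is a description of letters, and its absence says nothing about any factor.

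Galectin-9 is a secreted lectin whose best known receptor on T cells is TIM-3. *Lgals9* lies at chr11:78962974-78984946 on the minus strand (GRCm38). Normalised by TMM, its level was 50.6, 35.7, 29.4 and 16.1 CPM, that is counts scaled to library size, in Tu-primed replicates 1, 2, 3 and 4. In Spl-primed cells it was 8.002, 7.34, 6.28 and 6.85 CPM, and in parental cells 8.73, 7.62, 8.09 and 7.23 CPM. All Tu-primed libraries lay above all others, and their spread was wide, with replicate 1 at 6.39 times and replicate 4 at 2.03 times the parental mean. The log2 fold change was 2.21 ± 0.25 (SE, n = 4 per group) against Spl-primed cells (edgeR, adjusted p = 9.33e-05) and 2.05 ± 0.25 against parental cells (edgeR, adjusted p = 1.46e-05). Between Spl-primed and parental cells it was -0.15, with a 95% interval from -0.68 to 0.37 (edgeR, adjusted p = 0.662). Nearly all reads fell on the protein-coding transcript Lgals9-202, at a mean of 31.8 CPM in Tu-primed and 6.91 CPM in Spl-primed cells.

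The order of the Tu-primed libraries in *Lgals9* was also their order in a list of 12 interferon-stimulated genes. The summed level of that list was 409.8, 296.4, 240.9 and 109.0 CPM in Tu-primed replicates 1 to 4, against 34.4 to 40.8 CPM in Spl-primed and 33.2 to 37.1 CPM in parental libraries. All 12 genes of the list were called higher in Tu-primed than in Spl-primed cells, where the share of all tested genes called higher was 4.66%. Among them *Mx1* had 0.382 to 0.852 CPM in Tu-primed and at most 0.244 CPM in other libraries, so it passed the low-count filter only through the Tu-primed group and lends no support to the count. Over the 12 libraries, the genes with log2 CPM most like that of *Lgals9* included *Ddx58*, the RNA sensor RIG-I, and *Lgals3bp*, a galectin-binding glycoprotein, with Pearson r of 0.996 and 0.994. These points share their groups and their libraries, so the values are a description. Whether the interferon-stimulated genes have a part in the *Lgals9* difference was not tested.

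**Figure D1:**
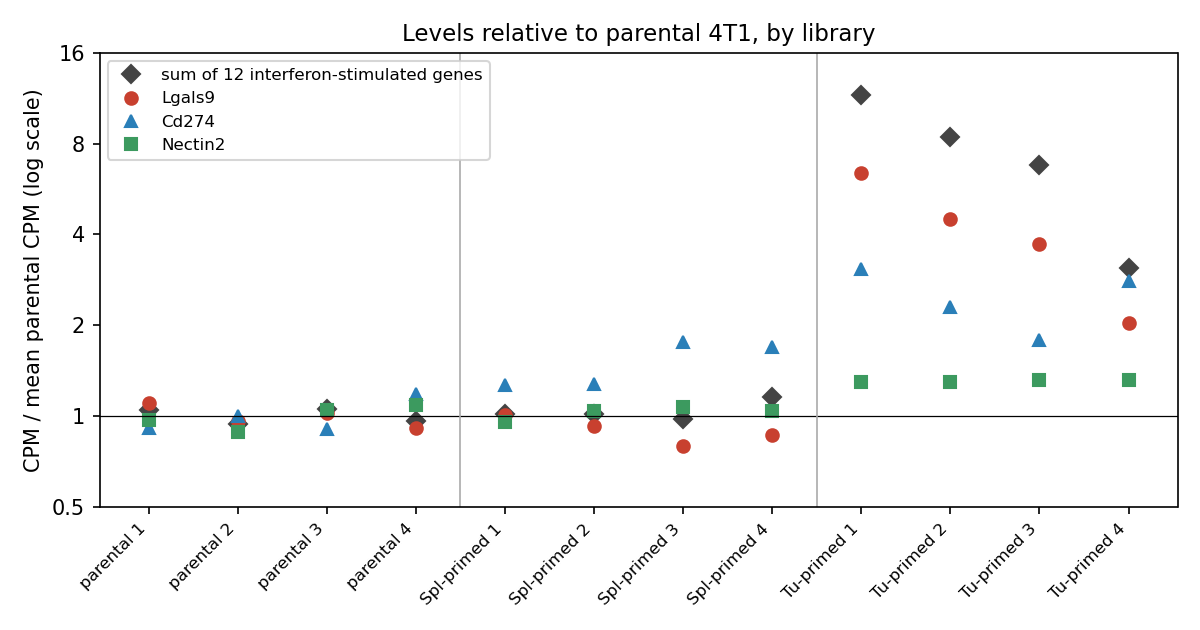
Level of *Lgals9*, *Cd274*, *Nectin2* and the summed level of 12 interferon-stimulated genes in each library, divided by the mean of the 4 parental libraries (log scale, TMM-scaled CPM). *Lgals9* ranged from 6.39 in Tu-primed replicate 1 to 2.03 in replicate 4 and followed the order of the list, whereas *Nectin2* stayed between 1.29 and 1.32 in these 4 libraries.

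PD-L1 is the ligand that restrains T cells through PD-1. *Cd274* (chr19:29367455-29388095, plus strand) had 32, 22, 19 and 30 counts in Tu-primed libraries, 15, 13, 18 and 18 counts in Spl-primed libraries, and 10, 9, 8 and 11 counts in parental libraries. In CPM the groups lay at 0.924 ± 0.209, 0.556 ± 0.098 and 0.371 ± 0.049 (mean ± SD, n = 4 each), and no 2 groups overlapped. The gaps were small, with 19 counts in the lowest Tu-primed and 18 in the highest Spl-primed library. The log2 fold change between Tu-primed and parental cells was 1.31 ± 0.25 (SE; edgeR, adjusted p = 0.000564). The difference between the primed groups, 0.73 with a 95% interval from 0.27 to 1.20, did not pass the threshold (edgeR, adjusted p = 0.0757). That between Spl-primed and parental cells, 0.58 with an interval from 0.05 to 1.102, did not pass it either (edgeR, adjusted p = 0.0886). The low-count filter asked for 0.368 CPM in at least 4 libraries, and *Cd274* met it in all primed libraries but in 1 parental library. Having passed through the groups in which it was higher, it stands in the counts of members called as a description only. With this few reads per library, intervals are wide.

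*Pdcd1lg2*, which encodes PD-L2 and lies on the same strand of chromosome 19 (chr19:29410919-29471161), had 0 to 2 counts in every library and was not tested. Among genes known to act on PD-L1, *Irf1* was higher in Tu-primed than in Spl-primed cells by 0.32 ± 0.06 (log2, SE; edgeR, adjusted p = 0.00554) and *Stat3* by 1.116 ± 0.09 (edgeR, adjusted p = 9.73e-06). Of a list of 15 regulators of the member proteins, 3 were called higher, where 4.66% of all tested genes were. At an unadjusted p under 0.05 (edgeR), 5 of them were higher, against 10.2% of all tested genes. *Cmtm6*, which protects PD-L1 from degradation, had a log2 fold change of 0.13 between the primed groups (edgeR, adjusted p = 0.146). The genes with the pattern most like that of *Cd274* over 12 libraries were *Fam162a*, *H2-Q4* and *Ndrg2*, with r of 0.943, 0.936 and 0.935.

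**Figure D2:**
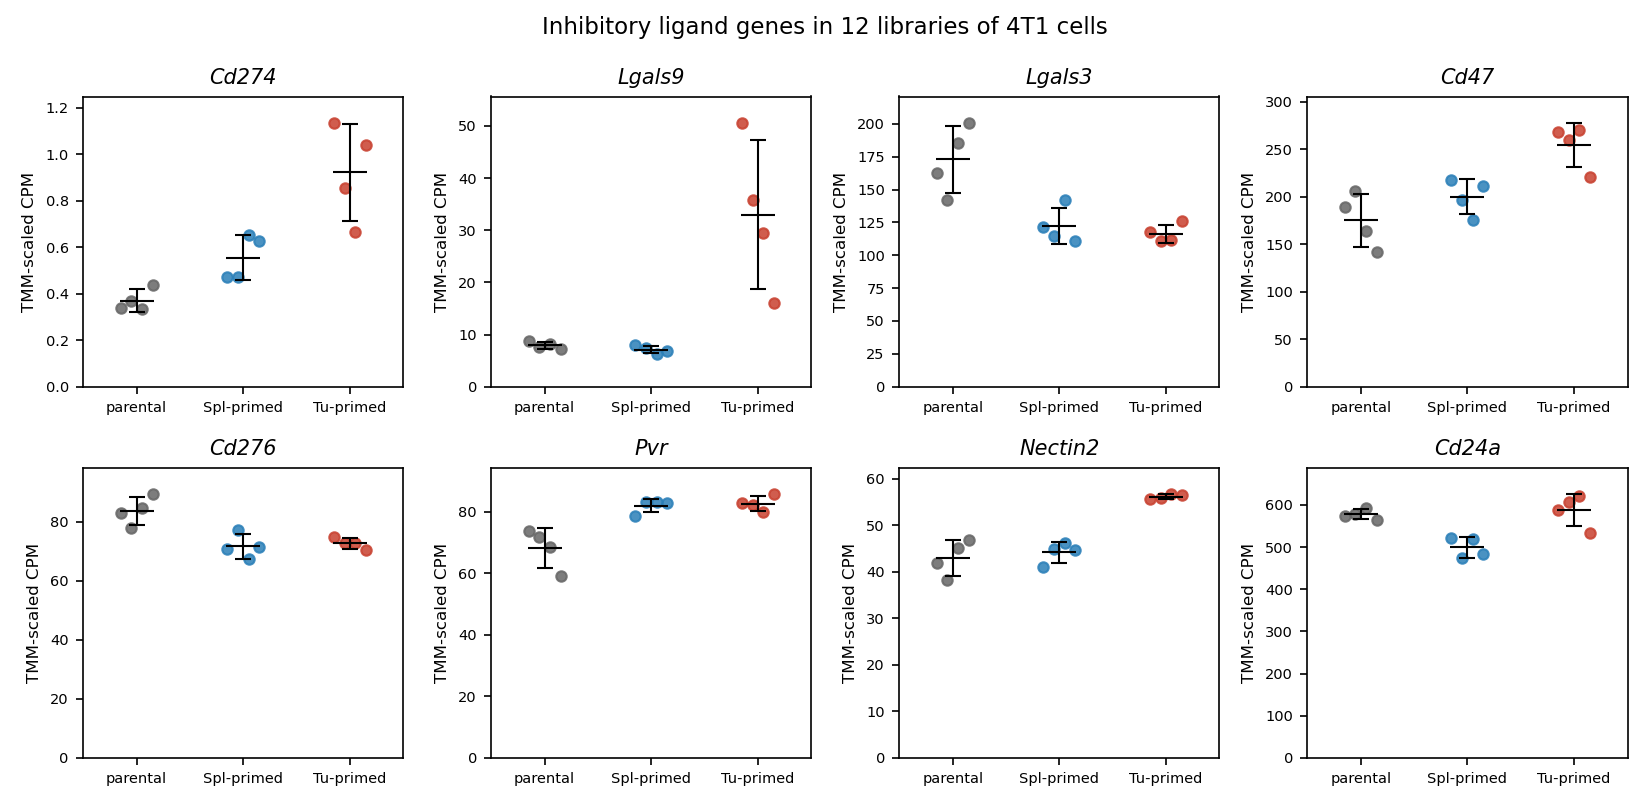
TMM-scaled CPM of the 8 tested genes in each library (points, replicates 1 to 4 from left to right), with the mean and SD of each group (bars, n = 4). *Cd274*, *Lgals9*, *Cd47*, *Nectin2* and *Cd24a* lay higher in every Tu-primed than in every Spl-primed library, whereas *Lgals3*, *Cd276* and *Pvr* overlapped between the primed groups.

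Nectin-2 (CD112) is an adhesion molecule of cell junctions that binds TIGIT and PVRIG. *Nectin2* (chr7:19716644-19750483, minus strand) was at 55.6, 55.9, 56.7 and 56.6 CPM in Tu-primed libraries. It was at 41.0, 44.8, 46.2 and 44.7 CPM in Spl-primed and at 41.9, 38.2, 45.2 and 46.9 CPM in parental libraries. The Tu-primed libraries lay close together and above all others, and they did not follow the order seen for *Lgals9*. *Nectin2* was 27.2% higher than in Spl-primed cells (log2 fold change 0.35 ± 0.06, SE; edgeR, adjusted p = 0.00308) and 30.5% higher than in parental cells (0.38 ± 0.06; edgeR, adjusted p = 0.000136). Between Spl-primed and parental cells the interval ran from -0.09 to 0.16 (edgeR, adjusted p = 0.646). With transcript length offsets, the log2 fold change was 0.31 between the primed groups (adjusted p = 0.0805) and 0.20 against parental cells (adjusted p = 0.0838). With the authors' normalized table and limma, the values were 0.32 (adjusted p = 0.0903) and 0.195 (adjusted p = 0.109). The genes most like *Nectin2* over the 12 libraries were *P2ry6*, *Kdelr3* and *Ifi205*, with r of 0.951, 0.946 and 0.937.

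The higher *Nectin2* counts were assigned mainly to 1 of 2 protein-coding transcripts. The uncertainty of assigning reads to transcripts is not in the values below. Nectin2-201, of 2735 bases, was at 33.2, 33.8, 35.1 and 32.2 CPM in Tu-primed libraries and at 22.3, 26.1, 22.9 and 25.8 CPM in Spl-primed libraries (log2 fold change 0.47 ± 0.07, SE; edgeR over 38164 transcripts, adjusted p = 0.0174). Nectin2-202, of 1955 bases, had a log2 fold change of 0.18 ± 0.12 (edgeR, adjusted p = 0.876). The 2 members with a transcript called higher between the primed groups were *Lgals9* and *Nectin2*, with 1 transcript each, where 0.495% of all transcripts were called higher. Nectin2-201 lost its call without Tu-primed replicate 1, 2 or 3 or Spl-primed replicate 1 or 3 (edgeR, adjusted p = 0.0533 to 0.0791) and with the replicate block (adjusted p = 0.115), at a log2 fold change of 0.41 to 0.47. Of the 22 member transcripts tested, 0 were called lower by edgeR, where the share of all transcripts was 0.0707%. At an unadjusted p under 0.05, 6 were higher and 0 lower, against 4.07% and 3.83% of all transcripts. The share of *Nectin2* counts on Nectin2-201 was 60.9 ± 2.57% in Tu-primed, 56.0 ± 3.92% in Spl-primed and 53.2 ± 2.15% in parental cells (mean ± SD, n = 4). No difference in share passed the threshold (exact permutation test, smallest adjusted p = 0.0857 over 27 comparisons of shares, 9 in each pair of groups). At an unadjusted p under 0.05, 1 share differed between the primed groups, 6 between Tu-primed and parental cells and 2 between Spl-primed and parental cells. Of 15531 transcript shares over all genes that met the same minimums, 3.65%, 20.0% and 18.8% had such a p. Shares of 1 gene depend on each other, and the 6 were 3 of *Cd47*, 2 of *Nectin2* and 1 of *Pvr*.

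PVR (CD155) binds TIGIT and CD96 and, on the activating side, CD226. *Pvr* (chr7:19903578-19921160, minus strand) was at 82.7, 82.1, 79.8 and 85.8 CPM in Tu-primed libraries and at 78.7, 83.2, 83.1 and 82.9 CPM in Spl-primed libraries. It was at 73.9, 71.8, 68.5 and 59.1 CPM in parental libraries, all below the primed ones. *Pvr* was 20.8% higher in Tu-primed cells (log2 fold change 0.27 ± 0.06, SE; edgeR, adjusted p = 0.00205) and 19.9% higher in Spl-primed cells (0.26 ± 0.06; edgeR, adjusted p = 0.00372) than in parental cells. Between the primed groups the log2 fold change was 0.01, with an interval from -0.11 to 0.13 (edgeR, adjusted p = 0.947). *Bmp1*, *Tubgcp3* and *Plau* were most like *Pvr* over the 12 libraries, with r of 0.974, 0.973 and 0.972. A retained-intron transcript, Pvr-205, was at 1.94 to 2.53 CPM in Tu-primed, 1.35 to 2.29 CPM in Spl-primed and 0.35 to 1.06 CPM in parental libraries. It was higher in both primed groups, by 1.73 (edgeR, adjusted p = 0.00330) and by 1.46 on the log2 scale (adjusted p = 0.0101). The protein-coding Pvr-201, which held 89.2% of the counts in Tu-primed cells, was not called in either comparison, at 0.14 (edgeR, adjusted p = 0.148) and 0.13 (adjusted p = 0.174).

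CD47 signals to SIRPα on macrophages and granulocytes. *Cd47* (chr16:49800533-49915010, plus strand) was at 267.6, 259.7, 270.6 and 220.9 CPM in Tu-primed libraries. It was at 217.1, 196.9, 175.7 and 211.0 CPM in Spl-primed and at 188.7, 205.9, 164.1 and 142.0 CPM in parental libraries. The primed groups did not overlap, with replicate 4 of the Tu-primed cells close to the highest Spl-primed library. *Cd47* was 45.4% higher in Tu-primed than in parental cells (log2 fold change 0.54 ± 0.11, SE; edgeR, adjusted p = 0.000628). The difference of 0.35 ± 0.11 between the primed groups did not pass the threshold (edgeR, adjusted p = 0.0621), and it did with DESeq2 (adjusted p = 0.0129). It also passed in edgeR when Tu-primed replicate 4 (adjusted p = 0.0314), parental replicate 2 (0.0382) or parental replicate 4 (0.0248) was left out. Between Spl-primed and parental cells it was 0.19 (edgeR, adjusted p = 0.149), and 0.28 without parental replicate 2 (adjusted p = 0.0381). *Tgfbr3*, *Map4k5* and *Gopc* were most like *Cd47*, with r of 0.991, 0.984 and 0.982.

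The balance between levels of genes with long and with short transcripts differed between libraries. In Spl-primed replicate 3 and parental replicates 3 and 4, genes with transcripts over 4000 bases were lower relative to genes under 1000 bases, by -0.38, -0.17 and -0.29 on the log2 scale against the mean of all libraries. The other 9 libraries lay between -0.06 and 0.23. Spl-primed replicate 3 was also the lowest of its group in *Cd47*, and parental replicates 3 and 4 the lowest of theirs. Among Tu-primed libraries, replicate 2 was lowest in long genes, at 0.02, whereas replicate 4, at 0.08, was lowest in *Cd47*. The main transcript of the gene, Cd47-201, has 5250 bases. Leaving out Spl-primed replicate 3 and parental replicates 3 and 4 was chosen after seeing the data and keeps only parental replicates 1 and 2. The log2 fold change of *Cd47* was then 0.31 between the primed groups (edgeR, adjusted p = 0.00921), 0.38 between Tu-primed and parental cells (adjusted p = 0.000909) and 0.07 between Spl-primed and parental cells (adjusted p = 0.489). With transcript length offsets, the difference from parental cells was 0.20 in Tu-primed cells and -0.03 in Spl-primed cells. These offsets differed between libraries only through the estimated transcript mix of each gene, so they do not correct for library length balance. The share of *Cd47* counts on Cd47-201 was 73.4 ± 0.50% in Tu-primed, 70.1 ± 2.40% in Spl-primed and 61.2 ± 5.62% in parental cells, and the shorter Cd47-202, of 1175 bases, took 12.1%, 14.5% and 19.95%. The part of library length balance in these shares was not tested.

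**Figure D3:**
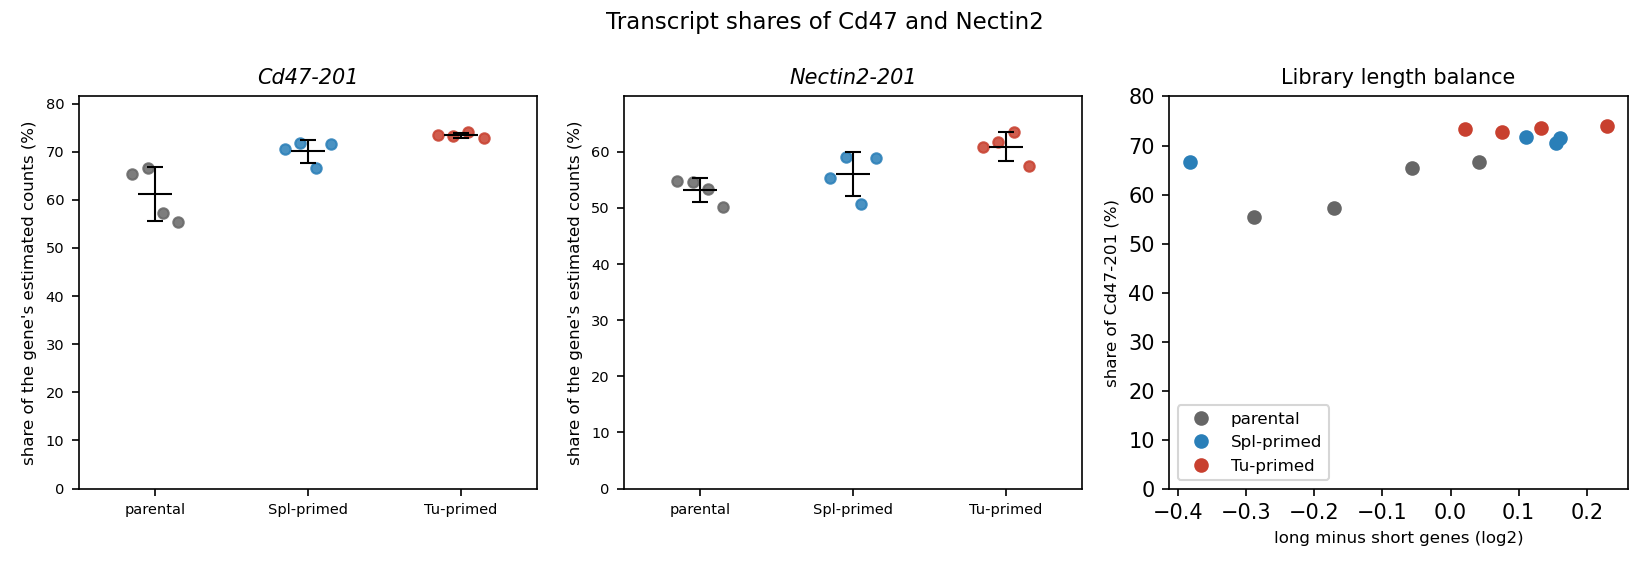
Share of the estimated counts of *Cd47* on Cd47-201 and of *Nectin2* on Nectin2-201 in each library (points, with mean and SD, n = 4), and the share of Cd47-201 against the median log2 deviation of long minus short genes in the library. The 3 libraries lowest on the horizontal axis had Cd47-201 shares of 66.6%, 55.4% and 57.3%, each the lowest or second lowest of its group.

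RNA levels of *Lgals3*, which encodes galectin-3, and *Cd276* were lower in both primed groups than in parental cells. *Lgals3* (chr14:47367751-47386160, plus strand) ranged from 111 to 126 CPM in Tu-primed, from 111 to 142 CPM in Spl-primed and from 142 to 201 CPM in parental libraries. It was 32.6% lower in Tu-primed cells (log2 fold change -0.57 ± 0.10, SE; edgeR, adjusted p = 0.000284) and 29.2% lower in Spl-primed cells (-0.50 ± 0.10; edgeR, adjusted p = 0.00122) than in parental cells. Spl-primed replicate 3 and parental replicates 3 and 4, the libraries lowest in long genes, had the highest *Lgals3* levels of their groups. Without them, with only parental replicates 1 and 2 left, the differences from parental cells were -0.38 (edgeR, adjusted p = 0.000311) and -0.41 (adjusted p = 0.000544). With length offsets, which do not correct for library length balance, the differences were -0.58 and -0.51. The part of library length balance in them was not tested. *Cd276* (chr9:58524298-58555437, minus strand), which encodes the B7 family member B7-H3, was at 72.7 ± 1.82, 71.7 ± 4.16 and 83.8 ± 4.69 CPM (mean ± SD, n = 4). It was 13.1% lower in Tu-primed (edgeR, adjusted p = 0.00589) and 14.4% lower in Spl-primed cells (edgeR, adjusted p = 0.00429). Between the primed groups the 95% intervals of the log2 fold change ran from -0.27 to 0.13 for *Lgals3* and from -0.09 to 0.13 for *Cd276*.

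CD24, which binds Siglec-G in the mouse, is also used to mark mammary epithelial cells. *Cd24a* (chr10:43578284-43584265, plus strand) was at 589.1, 606.8, 620.2 and 533.3 CPM in Tu-primed libraries, from 473.2 to 522.2 CPM in Spl-primed libraries, and from 564.3 to 593.3 CPM in parental libraries. The Spl-primed group was the one that stood apart, below both others. *Cd24a* was 17.5% higher in Tu-primed than in Spl-primed cells (log2 fold change 0.23 ± 0.06, SE; edgeR, adjusted p = 0.0202) and 13.5% lower in Spl-primed than in parental cells (-0.21; edgeR, adjusted p = 0.00727). Against parental cells the Tu-primed group differed by 0.02 (edgeR, adjusted p = 0.741). The call between the primed groups was lost without Tu-primed replicate 1, 2 or 3 or Spl-primed replicate 2 or 4, with adjusted p values between 0.0537 and 0.0824. Over all 25 alternatives the log2 fold change of *Cd24a* between these groups stayed between 0.206 and 0.276.

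*Ceacam1*, a ligand of itself and of TIM-3, had 0 to 2 counts per library. *Cd200*, whose receptor restrains myeloid cells, had 0 counts in each, which allows up to 3 counts or 0.126 CPM. Both were below the filter and not tested, so 8 of the 10 genes entered the fit of 12555 genes.

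On the TPM scale, which takes transcript length into account, *Cd24a* was the most abundant of the 10 genes in Tu-primed cells at 524.9 ± 33.1 TPM, followed by *Lgals3* at 192.7 ± 16.3, *Cd47* at 147.9 ± 13.1 and *Pvr* at 56.7 ± 2.10 TPM (mean ± SD, n = 4). TPM of a gene sums all its transcripts. Retained-intron transcripts of *Pvr* have 540 to 1916 bases, against 2905 for Pvr-201, so they weigh more in TPM than in counts. The TPM values and rank of *Pvr* are thus not those of its protein-coding transcript alone. *Nectin2* at 36.5 ± 0.975, *Lgals9* at 35.6 ± 15.2 and *Cd276* at 33.7 ± 1.25 TPM did not differ from each other beyond the spread of *Lgals9*, and *Cd274* was at 0.374 ± 0.081 TPM. In parental cells *Cd24a* was again highest at 375.6 ± 40.3 TPM, *Lgals3* second at 206.2 ± 14.6 and *Cd47* next at 92.2 ± 16.2 TPM. *Pvr* at 29.7 ± 7.20 and *Cd276* at 29.1 ± 1.62 TPM lay within their spread, *Nectin2* was at 22.8 ± 3.43 TPM, and *Lgals9* at 6.24 ± 1.05 TPM lay well below them. The TPM scale itself differed between groups, since the median gene was 0.47 higher on the log2 scale in Tu-primed and 0.40 higher in Spl-primed than in parental cells. *Cd276* was therefore lower than in parental cells in TMM-scaled CPM but higher in TPM as deposited, by 0.21 in Tu-primed and 0.13 in Spl-primed cells, and lower by -0.26 and -0.27 relative to that median. *Cd24a*, called lower in Spl-primed than in parental cells, was likewise higher by 0.20 in TPM as deposited and lower by -0.19 relative to that median. Relative to that median, the 7 genes called between Tu-primed and parental cells kept their direction, with *Lgals9* at 1.93, *Cd274* at 0.70, *Pvr* at 0.49, *Cd47* at 0.23, *Nectin2* at 0.22 and *Lgals3* at -0.57.

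**Figure D4:**
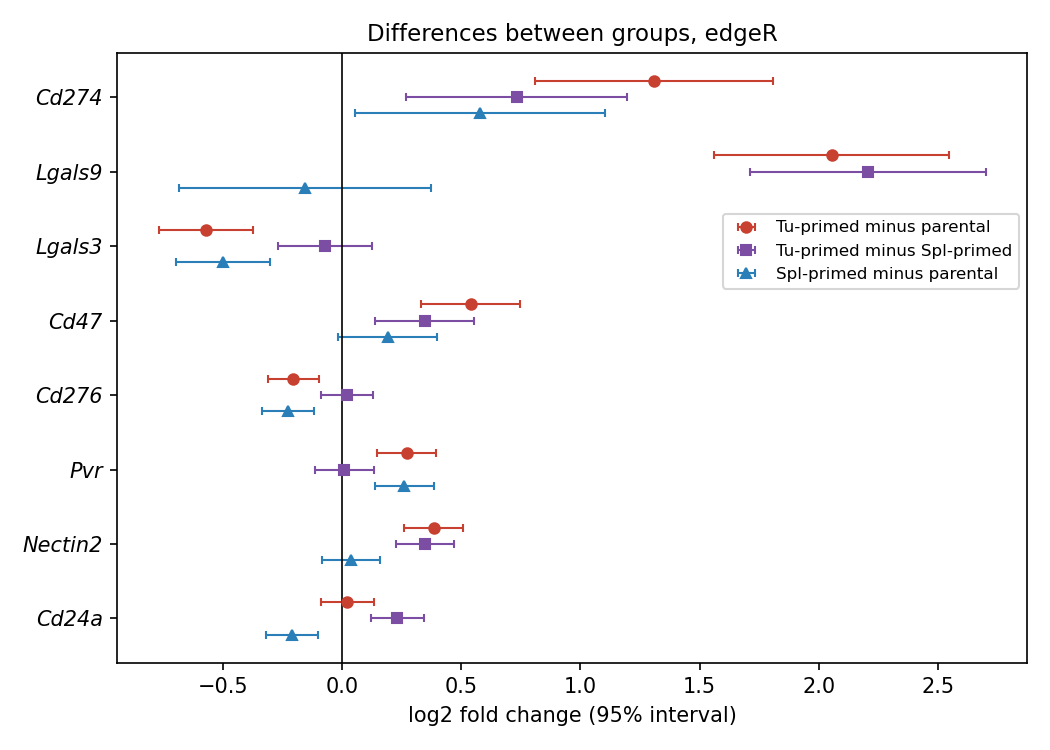
Log2 fold changes of the 8 tested genes from 1 edgeR fit of 12 libraries, with 95% intervals from the standard error, for the 3 comparisons. *Lgals9* was at 2.21 and 2.05 in the comparisons with Tu-primed cells and at -0.15 in the other, whereas *Pvr*, *Lgals3* and *Cd276* had intervals that included 0 between the primed groups alone.

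Over the 8 tested genes, 3 were called higher and 0 lower between Tu-primed and Spl-primed cells, where 4.66% of all tested genes were called higher and 2.97% lower, or 7.63% in either direction (edgeR, adjusted p under 0.05). At an unadjusted p under 0.05, 5 genes were higher and 0 lower, against 10.2% and 12.4% of all genes, and DESeq2 called 4 higher and 0 lower, against 6.40% and 4.06%. Leaving out single libraries gave 2 to 4 genes called higher, as *Cd24a* lost its call or *Cd47* passed. The 2 groups did not overlap for 5 of the 8, all higher, against 8.51% of all genes. For *Cd274*, 1 of these, the nearest libraries had 19 and 18 counts. Log2 fold changes had a median of 0.29 over these 8 genes and -0.01 over all genes. Against parental cells, 5 genes were higher and 2 lower in Tu-primed cells, where the shares of all genes were 31.2% and 28.0%, or 59.2% together, and the medians were 0.33 and 0.02. In Spl-primed cells 1 gene was higher and 3 were lower, where the shares were 25.7% and 22.5%, and the medians were -0.06 and 0.02. The Tu-primed and parental libraries did not overlap for 5 genes that were higher and 2 that were lower, against 28.6% and 26.9% of all genes. For Spl-primed and parental libraries these counts were 2 and 3, against 21.3% and 18.3%. Both comparisons with parental cells use the same 4 parental libraries. With so many genes called against parental cells, the counts of members there are not set apart from the background.

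Other genes of the same pathways were taken from 5 hand-written lists. Of 10 tested genes for further inhibitory ligands, edgeR called 3 higher in Tu-primed than in Spl-primed cells and 0 lower. Of all genes, 4.66% were called higher and 2.97% lower. At an unadjusted p under 0.05 (edgeR), 3 of the 10 were higher and 1 lower, against 10.2% and 12.4% of all genes. *H2-T23*, the mouse Qa-1 molecule that is presented to NKG2A, was higher by 1.402 ± 0.16 (log2, SE; edgeR, adjusted p = 0.000110), with 59.5, 49.1, 41.6 and 29.8 CPM in Tu-primed replicates 1 to 4 against at most 19.3 CPM in Spl-primed libraries. It followed the same order of libraries as *Lgals9*. *Clec2d*, a ligand of an inhibitory NK cell receptor, was higher by 1.19 ± 0.32 (edgeR, adjusted p = 0.0327), and *Vsir*, which encodes VISTA, by 0.51 ± 0.13 (edgeR, adjusted p = 0.0263).

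Of 5 tested receptors and partners of the 10 ligands, *Lgals3bp* (1.69 ± 0.20, log2, SE; edgeR, adjusted p = 0.000126) and *Sirpa* (0.32 ± 0.07; edgeR, adjusted p = 0.00853) were higher in Tu-primed than in Spl-primed cells. None was called lower, where 4.66% of all genes were called higher and 2.97% lower. At an unadjusted p under 0.05 (edgeR), 3 of the 5 were higher and 0 lower, against 10.2% and 12.4% of all genes. Of 10 tested immunosuppressive enzymes and cytokines, 5 were higher and 1 lower at an unadjusted p under 0.05 (edgeR). The shares of all genes were 10.2% and 12.4%. After adjustment, edgeR called 5 higher and 0 lower, against 4.66% and 2.97% of all genes. These were *Nos2*, the inducible nitric oxide synthase, at 1.496 ± 0.13 (edgeR, adjusted p = 1.14e-05), *Nt5e*, the adenosine-forming ectonucleotidase CD73, at 0.48 ± 0.08 (adjusted p = 0.00119), and *Vegfa*, an angiogenic growth factor, at 0.41 ± 0.08 (adjusted p = 0.00697). The others were the prostaglandin enzymes *Ptges* at 0.30 ± 0.05 (adjusted p = 0.00115) and *Ptgs2* at 0.34 ± 0.09 (adjusted p = 0.0246). Of 10 tested activating ligands, such as NKG2D ligands and costimulatory molecules, edgeR called 0 in either direction between the primed groups. Of all genes, 7.63% were called there. At an unadjusted p under 0.05 (edgeR), 2 of these ligands were higher and 1 lower, against 10.2% and 12.4% of all genes. These counts are not set apart from the shares over all genes. Between Tu-primed and parental cells, 6 of the activating ligands were higher and 1 lower, 4 of the other inhibitory ligands were higher and 3 lower, and 5 of the enzymes and cytokines were higher and 1 lower. Each of these lists had 10 tested genes, and 31.2% of all genes were higher and 28.0% lower there. Among those counted as higher, *Clec2d*, *Tnfrsf14* and *Cd40* were mostly under the low-count filter in parental libraries and passed it through the primed groups, so these counts are a description. Between the primed groups the median log2 fold change was 0.06 for the regulators, 0.08 for the activating ligands, 0.16 for the receptors and partners, 0.23 for the further inhibitory ligands and 0.32 for the enzymes and cytokines, against -0.01 over all genes.

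Markers of the line were present, except that *Krt14* had 7 to 14 counts in each library. *Epcam* was between 62.2 and 91.9 CPM and *Krt8* between 820.0 and 1886 CPM in all libraries. The summed level of 6 epithelial markers was 1837 to 2247 CPM in Tu-primed, 2332 to 2514 CPM in Spl-primed and 2610 to 3894 CPM in parental libraries. *Adgre1* and *C1qa* of macrophages, *Cd3e* of T cells and *Camp*, *Retnlg* and *Mpo* of granulocytes had 0 counts in every library, and *Ptprc*, the leukocyte marker CD45, had 1 to 10 counts. Other markers of these lists were present in every library, with 73 to 114 counts for *Cd68*, 41 to 96 for *Cxcr2*, 37 to 99 for *S100a8* and 38 to 146 for *Ltf*. The sum of 10 granulocyte markers was 6.28 to 11.4 CPM in Tu-primed, 4.64 to 6.79 CPM in Spl-primed and 5.36 to 6.50 CPM in parental libraries. Of the 3 that were tested, 2 were called higher between the primed groups, where 4.66% of all genes were. They were *S100a8*, by 0.93 (log2; edgeR, adjusted p = 0.0270), and *Ltf*, by 1.16 (adjusted p = 0.000820). The sum of 4 endothelial and fibroblast markers was 0.278 to 0.559 CPM in Tu-primed and 0.327 to 0.436 CPM in Spl-primed libraries, above the 0.0400 to 0.165 CPM in parental libraries. Of these, *Col3a1* had 0 counts in every library and *Pecam1* at most 8, and none of the 4 passed the filter. Whether these markers have a part in the ligand differences was not tested. Since these are bulk libraries, more cells that express a ligand and more RNA per cell cannot be told apart.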

How the data were processed

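Bulk RNA-Seq libraries (TruSeq Stranded RNA) of 3 groups with 4 replicates were analysed. The submitters' processing notes name FastQC, Trimmomatic 0.39 and Salmon 1.4.0, with GRCm38 and mm10 as builds. For each library the authors deposited estimated counts per Ensembl transcript, not normalized, together with TPM values and effective transcript lengths, which were identical in all libraries. Length offsets built from these lengths therefore differ between libraries only through the estimated transcript mix of each gene. A table deposited by the authors gives a normalized signal per gene, called normalized counts, and served as an alternative.

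Estimated counts were summed per gene with GENCODE M21 (GRCm38) and rounded. Of 117081 transcripts, 116021 matched, and the rest held 0.326% to 0.419% of reads. Library totals had a median of 27277534 reads. Genes passing filterByExpr (12555) were tested with edgeR 4.0.16 in R 4.3.3 (TMM, glmQLFit and glmQLFTest, 1 fit of 12 libraries), with Benjamini-Hochberg adjustment over all genes and a threshold of 0.05. Transcripts were fitted in the same way. Uncertainty of read assignment is not in the transcript counts, so errors and p values of transcripts and shares leave it out. Standard errors are the log2 fold change over the root of F. Precision is shown by the SD or SE over 4 libraries, and limits for 0 counts use 3 counts and cover counting error only. Transcript shares of at least 10% in some group, for genes with at least 50 counts in every library, were compared by exact two-sided permutation tests, for which the smallest p with 4 against 4 is 0.0286. CPM were scaled by effective library size, log2 CPM used a prior count of 2, and a pseudocount of 1 was added to the authors' table. The TPM shift was taken over 11574 genes with at least 10 counts in every library and a pseudocount of 0.1. Promoter sequences are from RefSeq (GRCm38.p6).

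Alternatives were DESeq2 1.42.0, limma 3.58.1 (voom), upper-quartile and RLE normalization, a fit without the low-count filter and one that asked for 10 counts in each library, fits of the 8 libraries under comparison, a replicate block, length offsets, protein-coding transcripts only, thinning, the authors' table with limma, and leaving out each library. Leaving out the 3 libraries lowest in long genes was chosen after seeing the data. The pipeline was tested on simulated data. Plots were drawn with matplotlib 3.10.9, and tables prepared with numpy 2.4.6 and pandas 2.3.3 in Python 3.11.15. The 10 genes, the other gene lists and the tests were chosen with earlier results of these data known. Named were the 10 genes, *Pdcd1lg2*, from each list the genes called between the primed groups (at most 5 per direction), and, for the 5 members described most fully, the 3 genes with the most similar log2 CPM. *Cmtm6*, *H2-T23* values by library and the receptors and ligands in the closing observations were chosen after their values were seen. The result of 1 gene that this rule names is not reported here.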

Additional observations from a re-analysis of the deposited data

Results flagged for a closer look

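In Spl-primed replicate 1, *Pvr* was at 78.7 CPM, whereas the other 3 libraries of the group lay between 82.9 and 83.2 CPM. The gap made up 0.931 of the range of the group, above Dixon's critical value for 4 samples. Chance gives such a gap in about 1 of 20 groups, and 24 groups were examined. All 4 libraries lay above every parental library, and without replicate 1 the log2 fold change between the primed groups was -0.00877.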

How the results depend on the processing

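Over 25 alternatives, 568 of 597 results of the 8 tested genes kept their direction and their side of the threshold, and 12 changed direction. None of those 12 was called in the main analysis or under the alternative. With length offsets the log2 fold change between Spl-primed and parental cells was -0.0255 for *Cd47* and -0.11 for *Nectin2*, and with the authors' table -0.0519 and -0.13. For *Nectin2* it was also -0.00287 without Spl-primed replicate 3 and -0.0168 without parental replicate 2, within a range up to 0.0805 over the libraries left out. *Cd24a* between Tu-primed and parental cells was at -0.00436 with the authors' table and -0.00424 without Tu-primed replicate 3, in a range up to 0.0664. Between the primed groups, *Pvr* was at -0.00822 without Tu-primed replicate 4 and -0.00877 without Spl-primed replicate 1, in a range up to 0.0337. *Lgals3* was at 0.0259 without Spl-primed replicate 3, in a range from -0.11, and at 0.0255 without the 3 libraries lowest in long genes. The causes of these changes were not tested. *Cd47* between the primed groups also passed with no filter (adjusted p = 0.0378) and with only the 8 libraries compared (adjusted p = 0.0200), over a range of 0.00921 to 0.181.

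When single libraries were left out, the number of genes called higher was 2 to 4 between the primed groups, as under the other alternatives, and 1 to 2 between Spl-primed and parental cells, and the number of member transcripts called higher between the primed groups was 1 to 3. It was 1 without Tu-primed replicate 1, 2 or 3 or Spl-primed replicate 1 or 3, where Nectin2-201 lost its call. *Lgals9* was called higher in Tu-primed cells under all alternatives (log2 fold change 1.92 to 2.44 against Spl-primed cells). *Cd274* was called against parental cells under all 24 alternatives that kept it, and between the primed groups under none of them (adjusted p = 0.0684 to 0.227). At least 10 counts in every library removed it.

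Replicate numbers were not taken to pair the libraries. Same-numbered libraries correlated between -0.16 and 0.02 across the primed groups and between -0.16 and 0.07 across Spl-primed and parental cells, where 0 of 4 correlated best with their own number. Across Tu-primed and parental cells these values were 0.08 to 0.15, and 3 of 4 did. With the replicate block, 1 member transcript was called higher between the primed groups, and over all genes 488 were called higher and 256 lower, against 585 and 373. The authors' table gave 338 higher and 123 lower, length offsets 349 and 146, and leaving out libraries 402 to 662 higher and 118 to 531 lower. Read depth limits *Cd274*, *Ceacam1*, *Cd200* and *Pdcd1lg2*, which had at most 32 counts in any library.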

Other observations

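Receptors for some of the ligands were read in the 4T1 libraries. *Tigit*, which encodes the receptor of PVR and nectin-2 on T and NK cells, had 617 to 826 counts in every library, and *Havcr2*, which encodes TIM-3, had 282 to 614, while *Cd3e* had 0 counts. In both primed groups *Havcr2* was lower than in the parental group, by -0.64 ± 0.10 in Tu-primed (log2, SE; edgeR, adjusted p = 0.000151), while the Spl-primed difference was -0.50 ± 0.10 (edgeR, adjusted p = 0.00138). *Tigit* was lower in Spl-primed cells by -0.24 ± 0.07 (edgeR, adjusted p = 0.0118) and differed by -0.08 in Tu-primed cells (edgeR, adjusted p = 0.328). These receptors were singled out after their values had been seen.

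*Clec2d* and *Tnfrsf14*, which encodes HVEM, the ligand of BTLA, had more reads in the primed than in the parental libraries. *Clec2d* had 67 to 124 counts in Tu-primed, 42 to 47 in Spl-primed and 1 to 16 in parental libraries. *Tnfrsf14* had 9 to 19, 8 to 12 and 0 to 2 counts. Their parental levels were mostly under the low-count filter, so that both passed it through the primed groups, and these counts are a description.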
